A study of Arabidopsis thaliana with 44 samples.

Results

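Transposable elements that were nearly silent in wild-type shoot apices and weakly transcribed without DDM1 are described here, in RNA sequencing of Arabidopsis thaliana seedlings. They were chosen by 2 measured values, in CPM (a feature's share of its library's total count, multiplied by 1000000). The mean over the 4 ddm1 libraries had to be at least 1 CPM and below 10 CPM, and the mean over the 16 wild-type libraries below 0.2 CPM. These bounds held for 721 of the 31189 element rows, with 7 identifiers left out by name, of which AT3TE65015 and AT4TE04415 lay inside the bounds. A further 416 elements were equally silent in wild type and reached 10 CPM or more in ddm1 (the strongly raised elements below), and 29790 stayed under 1 CPM in ddm1. Because the ddm1 and wild-type levels made the choice, they are given as a description and carry no test.

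The libraries came from shoot apices of Col-0 plants, taken 7 days after germination under 16 h of light and 8 h of dark. There were 4 libraries for each of 7 mutant labels (ddm1, ago4ago9, ago4, ago9, ago5, ago5ago9 and ago4ago5ago9) and 8 for each of the wild types wt21 and wt col-0, 44 in all. The labels give no allele for any mutant, give no distinction between wt21 and wt col-0, and leave unsaid whether replicates were separate plants, pools or days, so p-values measure the spread between these libraries, which may be technical. The shoot apex is the stem cell region with its youngest leaves, and Smart-seq3 is a full-length cDNA method.

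Transposable elements are held silent in plants by DNA methylation and by methylation of histone H3, which keep their chromatin compact. DDM1 is a Snf2-family nucleosome remodeller that gives the methylation enzymes access to such chromatin, and elements around the centromeres lose methylation and become transcribed without it. A separate route, RNA-directed DNA methylation, uses small RNAs bound by ARGONAUTE proteins of the AGO4 clade, AGO9 among them, to guide methylation to matching sequences. AGO5 belongs to another clade and is best known from reproductive tissue.

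Library totals ran from 4474810 to 10620119 counts, with a median of 6644238. A count of 0 allows up to 3 counts, which is 0.282 to 0.670 CPM depending on the library, so single members below that range in 1 library rest on up to 3 reads. Such limits cover counting error only. DDM1 RNA was at 1 to 7 counts in the ddm1 libraries, against 53 to 174 in wt col-0. AGO4 RNA was at 1 to 7 counts in ago4ago9 and 0 to 8 in ago4, against 108 to 334 in wt col-0. It went against 2 labels. In ago9 it was at 1 and 0 counts in replicates 1 and 2, although that label names AGO9 alone, and at 97 and 109 counts in replicates 3 and 4. In the libraries labelled ago4ago5ago9 it was at 77 to 264 counts. The meristem genes STM, CLV1, KNAT1 and ATH1 had counts in all 44 libraries, while the stem cell genes WUS and CLV3 had a count in 5 and 24 libraries. Of 5 root genes, WOX5 had counts in all 44 libraries, at up to 3.29 CPM, COBL9 had counts in 4, and PLT1, RHD6 and EXPA7 had 0 counts in every library. The 5 together summed to 1.69 to 3.13 CPM in ddm1 and 0.402 to 1.23 CPM in ago4ago9, against 0.393 to 2.26 CPM in wt col-0, and their part in the results was not tested.

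In ddm1 the 721 elements together held 2485, 2610, 2954 and 2124 CPM in replicates 1 to 4, against 2.54 to 5.57 CPM over the 8 wt21 libraries (median 3.33) and 2.47 to 8.90 CPM over the 8 wt col-0 libraries (median 4.10). No ddm1 library came near a wild-type one. The mean was 2543 ± 343 CPM in ddm1 (SD, n = 4), 3.52 ± 0.994 CPM in wt21 and 4.51 ± 1.88 CPM in wt col-0 (SD, n = 8 each). The chosen elements made up 4.31% to 5.80% of all element counts in a ddm1 library, and the strongly raised elements 76.7% to 78.4%. Weakly raised elements were the more numerous class, and their small part of the RNA follows in part from the bounds on the ddm1 mean. In bulk tissue, RNA from fewer cells and less RNA in each cell cannot be told apart.

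**Figure D1:**
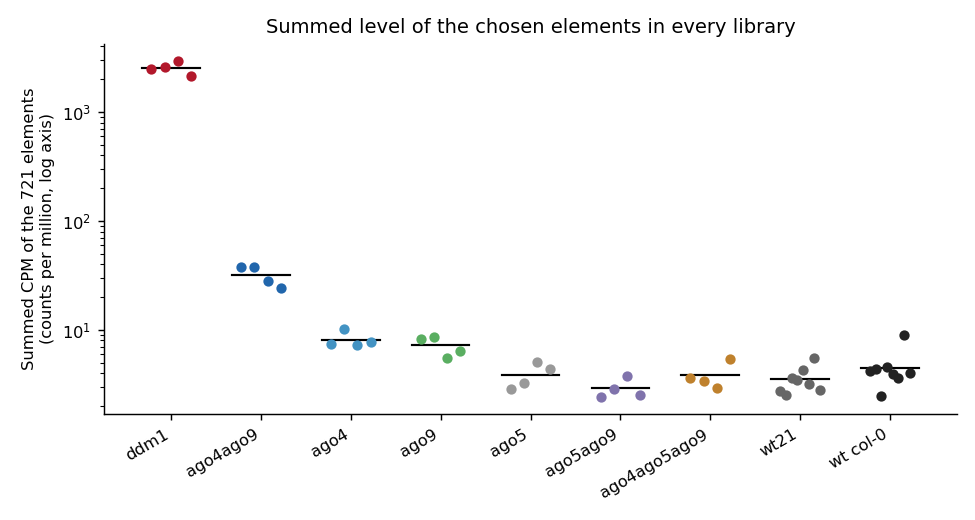
Summed level of the 721 chosen elements in each of the 44 libraries, in CPM on a log axis; points are libraries and bars are group means. The 4 ddm1 libraries lie between 2124 and 2954 CPM, the 4 ago4ago9 libraries between 24.1 and 37.8 CPM, and the wild-type libraries between 2.47 and 8.90 CPM.

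Within ddm1 the levels were skewed to the low bound. The median member had a mean of 2.67 CPM, and the middle part of the list ran from 1.64 to 4.84 CPM (quartiles). Means of 1 to 2 CPM were held by 254 members, of 2 to 5 CPM by 295 and of 5 to 10 CPM by 172. Summed over the 4 libraries a member had 30.8 to 344 counts, with a median of 89. A count was present in all 4 ddm1 libraries for 700 members, in 3 for 11, in 2 for 4 and in 1 for 6.

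The highest member, AT5TE42010, had 11.5, 8.99, 10.7 and 8.64 CPM in ddm1 replicates 1 to 4, with 0 counts in every wild-type library. AT1TE45200, at nearly the same mean, had 14.7, 5.40, 11.3 and 8.39 CPM in ddm1. AT1TE53060 had 10.3, 9.87, 8.75 and 10.64 CPM in ddm1. Members of similar mean thus differed in how evenly the 4 libraries contributed, and each of these 3 was at 0 in wild type. The other 7 of the 10 highest members (AT4TE09565, AT1TE69815, AT2TE15415, AT4TE07420, AT4TE10335, AT5TE41425 and AT1TE52860) had means of 9.55 to 9.90 CPM in ddm1. Among them AT4TE07420 was the most uneven, at 18.4 CPM in replicate 2 and between 5.37 and 9.67 CPM in the other replicates.

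At the low end, AT5TE38320 had 0.907, 0.879, 1.38 and 0.847 CPM in ddm1 replicates 1 to 4, and AT5TE47165, AT2TE20450 and AT2TE41170 had means of 1.01 CPM. The bounds cut a continuous range. Just below 1 CPM stood AT5TE42985 at 0.998 CPM and AT1TE59135 and AT4TE17185 at 0.996 CPM, and just above 10 CPM stood AT4TE09315 at 10.02, AT2TE48990 at 10.24 and AT3TE57310 at 10.26 CPM. On the wild-type bound, AT1TE36130 at 0.190, AT2TE06405 at 0.171 and AT2TE08225 at 0.164 CPM were the nearest inside. AT1TE28370 at 0.300, AT3TE54760 at 0.443 and AT4TE10320 at 0.499 CPM were the nearest outside among elements within the ddm1 bounds. Leaving out any 1 ddm1 library and applying the rule again chose 719 to 744 elements and lost 23 to 41 of the 721.

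The ddm1 libraries differed among themselves by more than the counting of reads gives. The coefficient of variation (CV, the SD over the mean) of a member over the 4 libraries had a median of 35.9% (quartiles 25.7% and 49.2%), while the counts alone would give a median of 21.2%. It exceeded the counting value in 620 of 721 members (86.0%), and in 97.6% of the strongly raised elements, whose median CV was 22.9% against 5.86% from counting. The highest library of a member was a median of 2.24 times its lowest, over the 700 members with a count in all 4. Replicate 3 was the highest library for 318 members, replicate 2 for 204, replicate 1 for 140 and replicate 4 for 59. The strongly raised elements had the same order, at 199, 100, 77 and 40.

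**Figure D2:**
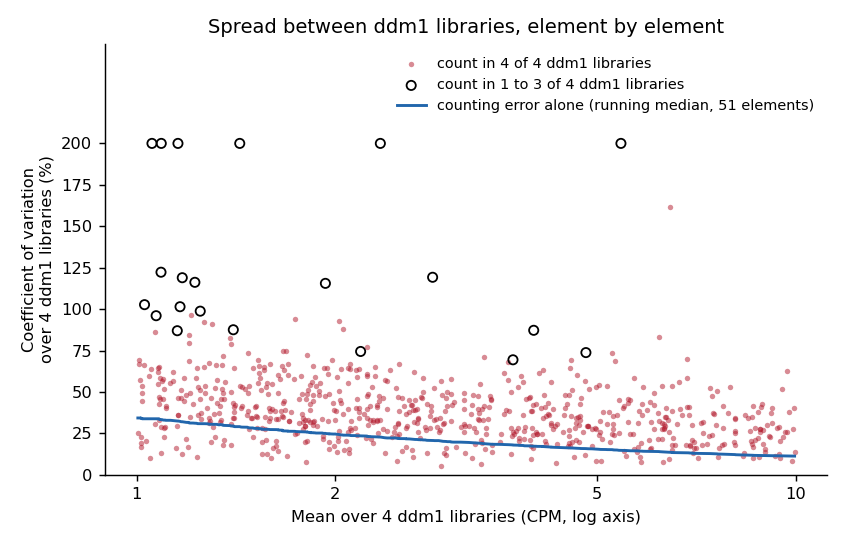
Coefficient of variation over the 4 ddm1 libraries (%) against the mean in ddm1 (CPM, log axis) for the 721 chosen elements; the line is the running median of the value that counting error alone would give, and open circles are elements with a count in 1 to 3 of the 4 libraries. Most points lie above the line, and 6 elements reach 200% because 1 library holds all their counts.

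The most even members were AT2TE06885 at 2.87, 3.13, 2.76 and 2.83 CPM, AT5TE37660 at 3.23, 3.36, 3.62 and 3.13 CPM, AT1TE53970 at 4.08, 4.59, 4.60 and 4.05 CPM and AT2TE22075 at 6.04, 5.35, 6.32 and 5.58 CPM in ddm1 replicates 1 to 4. At the other extreme, 35 members drew more than 50% of their summed CPM from 1 library. AT1TE50115 had 9.37 CPM (95.9 estimated counts) in ddm1 replicate 2 and 0 in the other 3. AT2TE16235 and AT2TE21765 likewise had counts in replicate 2 alone, at 4.62 and 4.22 CPM, and AT2TE16585 in replicate 3 alone, at 5.73 CPM. These 4 counts were not whole numbers, so part of the reads had been divided between features. Their place on the list rests on 1 library each.

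The chosen elements were spread over all 5 chromosomes, with 118 of 7135 element rows on chromosome 1, 169 of 5949 on chromosome 2, 145 of 6461 on chromosome 3, 128 of 4967 on chromosome 4 and 161 of 6677 on chromosome 5. Element identifiers carry the chromosome and, by convention, run in order along it. When each chromosome's identifiers were cut into 10 equal bins, the 3 neighbouring bins richest in members held 463 of the 721 (64.2%), and 71.4% of the strongly raised elements, against 30% if members were spread evenly. They were bins 4 to 6 on chromosome 1, 3 to 5 on chromosomes 2 and 5, 5 to 7 on chromosome 3 and 2 to 4 on chromosome 4. The first and last bins together held 42 members (5.83%, against 20% if spread evenly). The window was placed where members were most frequent, so its share is a description. Members thus lay in the inner stretch of identifiers on each chromosome, as the strongly raised elements did. Positions and element families are not given, because the annotation used here does not carry these identifiers.

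**Figure D3:**
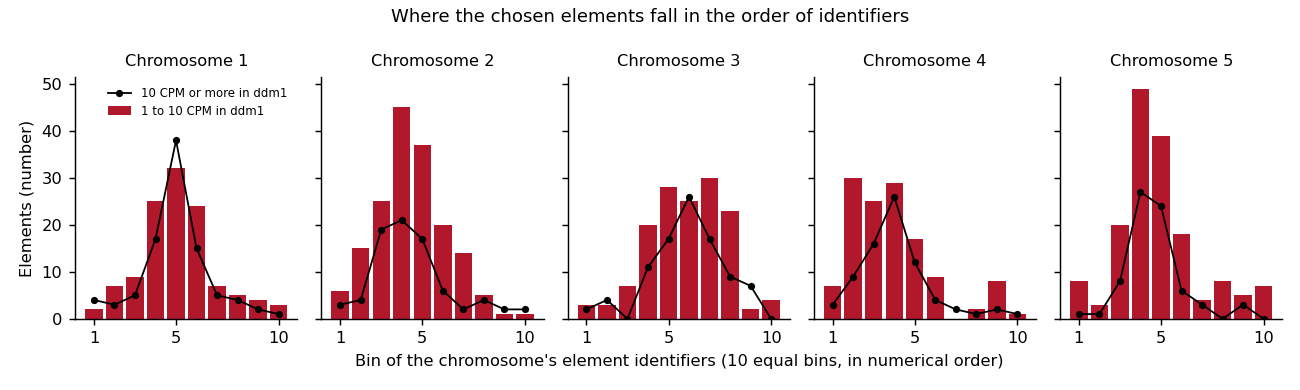
Number of elements in each of 10 equal bins of a chromosome's element identifiers, in numerical order, for the 5 chromosomes; bars are the 721 chosen elements (1 to 10 CPM in ddm1) and the line with points is the 416 strongly raised elements (10 CPM or more). Both pile up in inner bins and are sparse in the first and last bin of each chromosome.

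An immediate neighbour in identifier order was itself raised in ddm1 (a member or a strongly raised element) for 175 members (24.3%). The same held for 27.2% of the strongly raised elements and 6.84% of all element rows. Another member was the neighbour for 116. Counting members only, 605 had no other member as a neighbour, and the rest formed 45 pairs, 6 runs of 3 and 2 runs of 4. In the run AT2TE19590, AT2TE19595, AT2TE19600 and AT2TE19610 the means in ddm1 were 2.99, 1.11, 1.92 and 3.60 CPM. In the run AT4TE09560, AT4TE09565, AT4TE09570 and AT4TE09580 they were 8.36, 9.90, 1.74 and 1.19 CPM. Neighbouring identifiers can be pieces of 1 transcribed element, so members of a run are not independent measurements.

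Element copies resemble each other, and the estimated counts show where reads had been divided. Of the non-zero ddm1 values, 41.4% were not whole numbers for the chosen elements, against 78.8% for the strongly raised elements, 37.2% for all elements and 6.14% for genes. A fractional value occurred in ddm1 for 383 members, and 335 members were whole numbers in every library, to within 1e-06. These 335 alone summed to 1153 CPM in ddm1, 1.59 CPM in wt21 and 1.81 CPM in wt col-0. The rule fixes that contrast, so these sums are a description. The level of a single fractional member is uncertain.

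Outside ddm1 the chosen elements were close to absent. In wild type, 597 of the 721 had 0 counts in all 16 libraries, 49 of the remaining 124 had a single count, and the 16 libraries together held 494 counts of members. A total of 515 members had 0 counts in all 40 libraries other than ddm1. Wild-type replicate 7 of wt col-0 stood apart at 8.90 CPM, where the other 7 wt col-0 libraries lay between 2.47 and 4.52 CPM. That library held 23.3 CPM of the strongly raised elements, spread over 50 of them, against at most 4.003 CPM in the other wt col-0 libraries. Its highest members were AT2TE06405 at 1.06 CPM (8 counts) and AT2TE16235 at 0.664 CPM (5 counts).

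Among the ago groups, which did not enter the rule, ago4ago9 stood out. Its libraries held 37.8, 37.7, 27.8 and 24.1 CPM of the chosen elements in replicates 1 to 4, and none came within reach of the highest wild-type library at 8.90 CPM. In ago4 the sums were 7.47, 10.2, 7.20 and 7.73 CPM, above all wt col-0 libraries except replicate 7. In ago9 they were 8.28 and 8.64 CPM in replicates 1 and 2, which lacked AGO4 RNA, and 5.51 and 6.44 CPM in replicates 3 and 4. The means were 31.9 ± 6.97 CPM in ago4ago9, 8.15 ± 1.38 in ago4, 7.21 ± 1.49 in ago9, 3.89 ± 0.984 in ago5, 2.91 ± 0.622 in ago5ago9 and 3.84 ± 1.05 CPM in ago4ago5ago9 (SD, n = 4 each). The last 3 groups, at 2.41 to 5.35 CPM, overlapped with the wild-type libraries. In ago4ago9 the strongly raised elements summed to 6.62 ± 0.713 CPM, against 4.85 ± 7.48 CPM in wt col-0, where the median was 1.97 CPM. The silent elements under 1 CPM in ddm1 summed to 88.5, 67.0, 68.5 and 58.5 CPM in ago4ago9 replicates 1 to 4. They summed to 26.9 to 41.5 CPM in the wild-type libraries and to at most 57.0 CPM in the other ago libraries (ago9 replicate 4). A higher sum in ago4ago9 was thus not particular to the chosen elements.

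A few members carried the ago4ago9 sum. The 6 highest made up 68.1% of it, where the 6 highest of each other ago group made up 30.7% to 41.7% of its sum. In ddm1 that share was 2.33%, which the upper bound on each member's ddm1 mean keeps low. A mean of 0.2 CPM or more was reached by 21 members in ago4ago9, 9 in ago4, 5 in ago9, 5 in ago4ago5ago9, 2 in ago5 and 0 in ago5ago9. It was reached by 1 in wt21 and 2 in wt col-0, where the rule's bound of 0.2 CPM on the wild-type mean keeps the number low. Of the 21, 12 had a count in all 4 ago4ago9 libraries, 18 had 0 counts in every ago5ago9 library, 9 had 0 counts in every wild-type library, and all 21 had a higher mean in ago4ago9 than in ago4. Of all 721 members, 679 had 0 counts in every ago5ago9 library and 597 in every wild-type library. The 21 were thus less often silent in those groups than the full list. The 21 were picked by their ago4ago9 mean, so these counts are a description. Fractional counts occurred in 14 of them. The members with whole counts alone summed to 6.31 CPM in ago4ago9, against 1.81 CPM in wt col-0, so most of the ago4ago9 sum came from members with divided reads. The level exceeded that of ddm1 in 3 members. AT3TE51930 averaged 3.94 CPM in ago4ago9 and 1.85 in ddm1, AT3TE76010 averaged 3.96 and 1.49 CPM, and AT5TE39170 averaged 1.90 and 1.46 CPM in these groups.

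**Figure D4:**
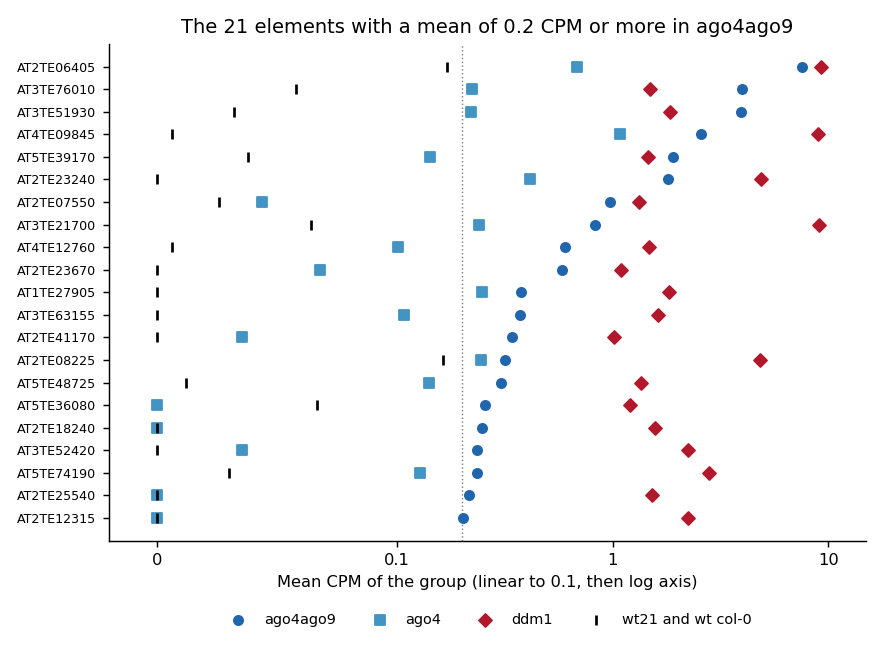
Mean level in ago4ago9, ago4, ddm1 and wild type (16 libraries) of the 21 chosen elements with a mean of 0.2 CPM or more in ago4ago9 (dotted line), in CPM on an axis that is linear to 0.1 and logarithmic above. In all 21 the ago4ago9 mean lies right of the ago4 mean, and in 3 of them it also lies right of the ddm1 mean.

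Members were tested between groups with edgeR's quasi-likelihood test, with p-values adjusted by the Benjamini-Hochberg method over 17557 features and a call at an adjusted p under 0.05. A filter on low counts, which required about 1.51 CPM in 4 libraries, admitted 397 of the 721 members. Of the 397, 393 had that level in all 4 ddm1 libraries. AT1TE41580 and AT1TE72615 fell just short of it in 1 ddm1 library. AT3TE51930 and AT3TE76010 entered through ago4ago9, the group where they were high, so that their difference from the other groups follows in part from the filter, and shares of members called in ago4ago9 are not a result about the members. Most members had few reads outside ddm1, as 553 of the 721 had 0 counts in all 24 ago libraries. Low shares called in the other comparisons are therefore not a result about the members either. The comparisons of an ago group with wt col-0 share the wt col-0 libraries with each other and with the rule, which kept only members low there. The comparisons between ago groups share no library with the rule.

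In ago4ago9 against wt col-0, 6 of the 397 members were higher (1.51%), where 1.11% of all features tested were. AT2TE06405 had 11.3, 9.84, 3.55 and 5.43 CPM in ago4ago9 replicates 1 to 4, against 0 CPM in 6 wt col-0 libraries and 0.770 and 1.06 CPM in the other 2. Its log2 fold change was 5.26 (SE 0.617, adjusted p = 1.61e-07), and the groups did not overlap. AT3TE76010 had 2.54, 6.63, 3.62 and 3.07 CPM in ago4ago9, against 0 to 0.266 CPM in wt col-0 (median 0). Its log2 fold change was 5.79 (SE 0.560, adjusted p = 2.72e-09). AT3TE51930 had 3.76, 5.43, 4.27 and 2.28 CPM in ago4ago9, against 2 counts in all of wt col-0. The ratio of its counts was 120 (95% interval 32.3 to 998, counting error only), with an adjusted p of 2.72e-09. These 3 were higher in each ago4ago9 library than in any wt col-0 library, and all 3 had fractional counts in ago4ago9.

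The other 3 called members, AT4TE09845, AT2TE23240 and AT3TE21700, averaged 2.57, 1.81 and 0.832 CPM in ago4ago9, where ddm1 had 8.92, 4.85 and 9.04 CPM. AT4TE09845 had 2.12, 1.61, 3.82 and 2.74 CPM in ago4ago9, all whole counts, against 1 count in all of wt col-0. The ratio of its counts was 158 (95% interval 27.4 to 6313, counting error only), with an adjusted p of 4.99e-06. AT2TE23240 had 1.31, 2.54, 2.73 and 0.653 CPM in ago4ago9 and 0 counts in all 16 wild-type libraries. It was at least 36.9-fold higher in ago4ago9, against a floor of 3 counts over the 8 wt col-0 libraries, with an adjusted p of 7.63e-05. AT3TE21700 had 1.47, 0.536, 0.409 and 0.914 CPM in ago4ago9, against 0 to 0.208 CPM in wt col-0. Its log2 fold change was 3.61 (SE 0.749, adjusted p = 0.0063). None of the 3 overlapped with wt col-0. The AT3TE21700 call was lost with wt col-0 replicates 1 to 4 alone as control (adjusted p = 0.0751) and with the replicate block (0.0864), within a range of 0.000938 to 0.0864 over its alternatives.

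The same 6 members were called in ago4ago9 against ago5ago9, whose libraries did not enter the rule, and made up 1.51% of members tested where 0.376% of all features were higher. Nothing is read from these shares, since AT3TE51930 and AT3TE76010 passed the filter only through ago4ago9. In ago5ago9 none of the 6 had a count in any library, against 23 to 210 counts in ago4ago9. As lower bounds against 3 counts over the 4 ago5ago9 libraries, AT2TE06405 was at least 64.0-fold higher (adjusted p = 1.56e-05), AT3TE76010 at least 35.0-fold (adjusted p = 2.59e-06) and AT3TE51930 at least 34.2-fold (adjusted p = 5.59e-06). AT4TE09845 was at least 22.5-fold higher (adjusted p = 0.00107), AT2TE23240 at least 15.8-fold (adjusted p = 0.00787) and AT3TE21700 at least 7.00-fold (adjusted p = 0.0269). The AT3TE21700 call was lost with only the groups compared (adjusted p = 0.0959) and did not survive the omission of ago4ago9 replicate 1 or 4 or of any 1 ago5ago9 library, with adjusted p-values up to 0.150. The AT2TE23240 call was lost with DESeq2 (adjusted p = 0.110) and without ago5ago9 replicate 2 (adjusted p = 0.0521).

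Against ago4, 3 members were higher in ago4ago9 (0.756% of members tested), where 0.057% of all features were. Of these 3, AT2TE06405 alone passed the filter through ddm1 as well, so nothing is read from the shares. AT3TE76010 stood at 0.154, 0.454, 0 and 0.285 CPM in the ago4 libraries, well under its 4 ago4ago9 values, and its log2 fold change was 4.17 (SE 0.631, adjusted p = 0.000339). AT3TE51930 stood at 0, 0.142, 0.545 and 0.199 CPM in ago4, with a log2 fold change of 3.81 (SE 0.633, adjusted p = 0.00131). AT2TE06405 was even across ago4, at 0.744, 0.570, 0.764 and 0.647 CPM, with a log2 fold change of 3.39 (SE 0.679, adjusted p = 0.0193). The groups did not overlap for any of the 3. The first 2 calls held under all 13 alternatives. Both of these members entered the test through ago4ago9, so their calls follow in part from the filter. AT2TE06405 lost its call under 7 alternatives. Among them were the omission of any 1 ago4 library (adjusted p 0.0994 to 0.113), of ago4ago9 replicate 1 (0.136) or 2 (0.0717), and DESeq2. Green leaf genes (RBCS1A, CA1, LHCB1.1 and LHCB1.3), all 4 present in every library, summed to 91948 to 105404 CPM in ago4ago9 and 100245 to 115110 CPM in ago4, against 59066 to 94621 CPM in wt col-0. The 10 meristem genes summed to 28.2 to 38.5 CPM in ago4ago9, against 35.9 to 57.8 CPM in wt col-0, with CLV1 the highest of them. The part of tissue makeup in these results was not tested.

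**Figure D5:**
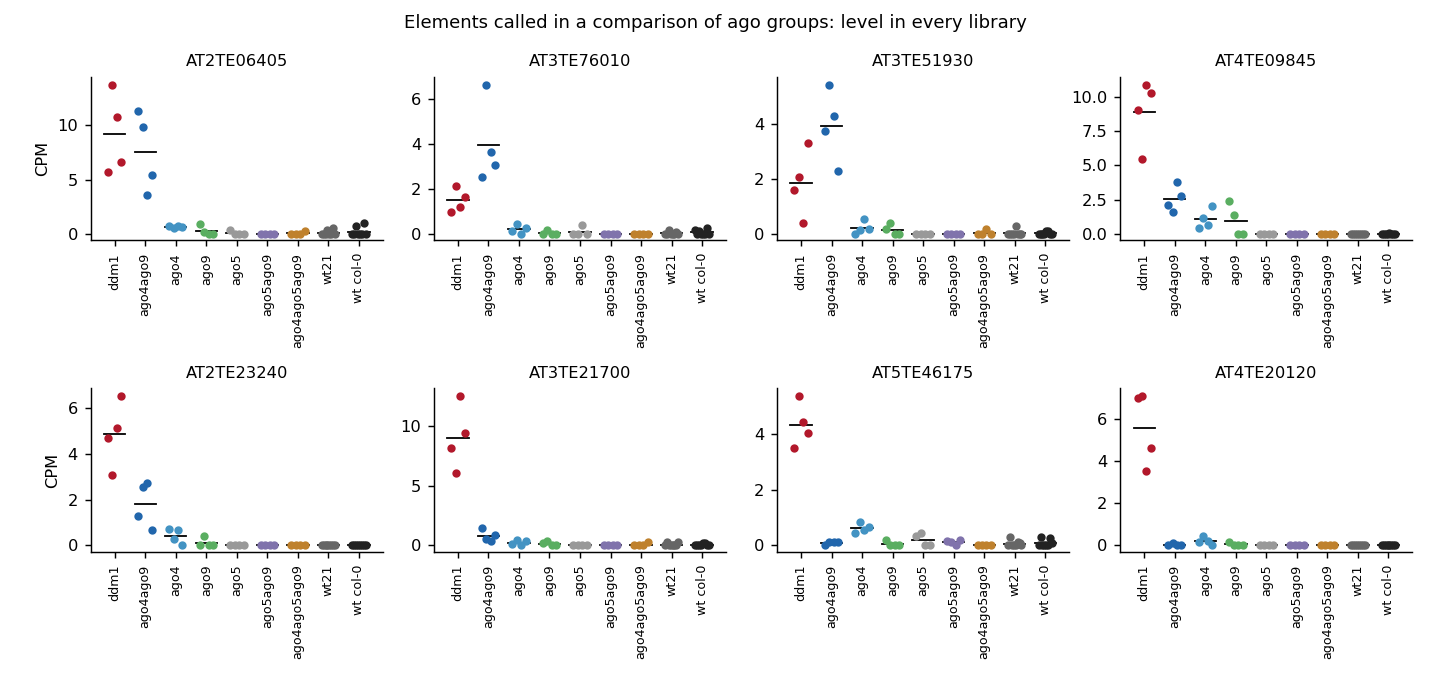
Level (CPM) of the 8 chosen elements called in a comparison of ago groups, in each library of the 9 groups; points are libraries, bars are group means, and each panel has its own axis from 0. AT2TE06405, AT3TE76010 and AT3TE51930 reach levels in ago4ago9 that overlap with or exceed those of ddm1, AT4TE09845 has counts in ago9 replicates 1 and 2 and none in 3 and 4, and ago5ago9 is at 0 in all panels except AT5TE46175.

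In ago4 against wt col-0, 4 members were higher (1.01% of members tested, against 2.85% of all features). Nothing is read from these shares, or from those of ago9 below, since most members were near 0 in both groups. AT4TE09845 had 0.446, 1.14, 0.655 and 2.07 CPM in ago4, 33 counts in all, against 1 count in wt col-0. The ratio was 65.6 (95% interval 10.99 to 2669, counting error only), with an adjusted p of 0.00101. AT5TE46175 had 0.446, 0.854, 0.545 and 0.647 CPM in ago4, against 0 to 0.304 CPM in wt col-0, with no overlap, a log2 fold change of 2.96 (SE 0.632) and an adjusted p of 0.00455. It was not called in ago4ago9, where it had 0, 0.134, 0.136 and 0.131 CPM. AT2TE23240 had 0.727, 0.285, 0.655 and 0 CPM in ago4 and was at least 8.54-fold above the wt col-0 floor (adjusted p = 0.0110). AT4TE20120 had 0.149, 0.427, 0.218 and 0 CPM in ago4, from 6 counts, and was at least 3.98-fold above the floor (adjusted p = 0.0268), with a count in 1 of 4 libraries of ago4ago9. The last 2 had an ago4 library at 0 like wt col-0, and their calls were lost under 7 of 19 and 8 of 18 alternatives, including the omission of ago4 replicate 1 or 3 (also replicate 2 and wt col-0 replicate 8 for AT4TE20120). All 4 calls were lost with wt col-0 replicates 1 to 4 as control, at adjusted p-values of 0.0717 for AT4TE09845, 0.135 for AT5TE46175, 0.176 for AT2TE23240 and 0.236 for AT4TE20120.

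In ago9 against wt col-0 the only member called was AT4TE09845 (0.252% of members tested, against 1.29% of all features). It had 2.39 and 1.41 CPM in ago9 replicates 1 and 2 and 0 counts in replicates 3 and 4, so the group overlapped with wt col-0. The ratio of counts was 59.4 (95% interval 9.50 to 2461, counting error only), with an adjusted p of 0.00969. AGO4 RNA was at 1 and 0 counts in the first 2 libraries and at 97 and 109 counts in the other 2. With ago9 replicates 1 and 2 alone, a choice made after these values were seen, the log2 fold change was 6.16 (adjusted p = 2.04e-05). The call was lost without ago9 replicate 1 (adjusted p = 0.120) or 2 (adjusted p = 0.0669). AT2TE06405 followed the same order and was not called. It had 0.920 and 0.201 CPM in replicates 1 and 2, from 5 counts and 1 count, and 0 in replicates 3 and 4.

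No member was called by edgeR's quasi-likelihood test in ago5, where 0.0456% of all features were higher, in ago5ago9, where 2.98% were, or in the libraries labelled ago4ago5ago9, where 0.171% were. At an unadjusted p under 0.05, 3, 2 and 4 members were higher in these groups, and DESeq2 called 0 in each. In ago4 against ago5, 0 members were called where 0.0968% of all features were higher, 8 were higher at an unadjusted p under 0.05, and DESeq2 called 0. No member was called lower in any of these comparisons (0 by edgeR). Levels near 0 in the second group leave little room for such a call. Levels near 0 in both groups leave little room for a call in either direction, so nothing is read from these shares.

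The 324 members that the filter kept out were also fitted, in a model of all features with at least 1 count. There 16 members were higher in ago4ago9 than in wt col-0, against 0.725% of the 28967 features fitted. They were the 6 above and 10 others with means of 0.235 to 1.90 CPM in ago4ago9. AT5TE39170 led these, at 2.74, 2.38, 1.03 and 1.45 CPM in ago4ago9 with 0 counts in wt col-0, and then AT2TE07550 and AT2TE23670, with 26.4 and 16 counts in ago4ago9 and 0 in wt col-0. AT4TE12760 had 17 counts in ago4ago9 and 1 in wt col-0. The other 6 of the 10 had 7 to 11 counts in ago4ago9 and 0 in wt col-0.

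Genes known to act in silencing were set beside the elements, together with genes that act against it, such as the DNA demethylase ROS1. Of 34 genes of transcriptional silencing, 1 was higher in ddm1 than in wt col-0, 5 were lower and 28 were not called, where 8.7% of all features were higher and 5.79% lower. The 17557 features tested include 987 element rows, 397 of them members chosen by their ddm1 level. The share higher is therefore not a rate for genes alone. The 34 genes had a median log2 fold change of -0.02, against 0.01 for all features. DDM1 itself had 0.442 ± 0.219 CPM in ddm1 (SD, n = 4), against 13.6 ± 2.77 CPM in wt col-0 (SD, n = 8), with a log2 fold change of -4.85 (SE 0.256, adjusted p = 1.1e-19). ROS1, a DNA demethylase, had 3.56 ± 0.765 CPM in ddm1, against 12.1 ± 2.71 CPM in wt col-0 (log2 fold change -1.77, SE 0.385, adjusted p = 0.000553). CMT2, a methyltransferase of heterochromatin outside CG sites, had 10.4 ± 1.78 CPM in ddm1, against 17.7 ± 4.36 CPM in wt col-0 (log2 fold change -0.80, SE 0.199, adjusted p = 0.00293). These 3 kept their call under all 19 alternatives.

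The other 3 calls were less firm. SUVH5, a histone H3 lysine methyltransferase, averaged 2.78 CPM in ddm1, against 1.11 CPM in wt col-0 (log2 fold change 1.28, SE 0.376, adjusted p = 0.0140) and was lost with wt21 as control (adjusted p = 0.0579), with wt col-0 replicates 1 to 4 (0.0908), with the replicate block (0.0909) and without ddm1 replicate 1 (0.116). NRPE1, the largest subunit of RNA polymerase V, averaged 7.33 CPM in ddm1, against 10.96 CPM in wt col-0 (log2 fold change -0.62, SE 0.201, adjusted p = 0.0276) and was lost with wt21 as control (adjusted p = 0.227), with only the groups compared (0.057) and without ddm1 replicate 2 (0.112), ddm1 replicate 4 (0.128) or wt col-0 replicate 4 (0.0616). The linker histone gene H1.2 averaged 116 CPM in ddm1, against 165 CPM in wt col-0 (log2 fold change -0.52, SE 0.138, adjusted p = 0.00556), and was lost with only the groups compared (adjusted p = 0.0765), with the replicate block (0.0711) and with wt col-0 replicates 1 to 4 (0.390). Of 8 genes that act on element transcripts after transcription, among them RDR6, SGS3, DCL2 and DCL4, 0 were called by edgeR against wt col-0. RDR6 was called with wt21 as control (edgeR adjusted p = 0.00462). Of the 28 uncalled genes of transcriptional silencing, VIM1, HDA6 and MOM1 were called under some alternatives. The green leaf genes summed to 41111 to 61839 CPM in ddm1, against 59066 to 94621 CPM in wt col-0, and the 10 meristem genes to 41.7 to 55.7 CPM in ddm1, against 35.9 to 57.8 CPM in wt col-0. Their part in the ddm1 results was not tested.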

How the data were processed

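The authors deposited 1 table of estimated counts per gene and transposable element, unscaled, with 1 column for each of the 44 libraries, and 0 columns were left unmatched to a sample. The genome build TAIR10 and the tool DESeq2 are named, per the submitters' processing notes. The aligner, the counting program, the use of strand, and whether reads or molecular identifiers were counted are not given in the sources used here. Library totals left out the 2 reporter rows (4.87e-05% of counts). CPM was the estimated count over that total. For tests, values were rounded to whole numbers, filtered with filterByExpr by group and normalised with TMM (factors of 0.855 to 1.33). A single edgeR quasi-likelihood model with a mean per group took in all 44 libraries. A ratio with 1 to 3 counts in 1 group has an exact binomial 95% interval, and a fold against 0 counts uses a floor of 3 counts over the group. Tests ran in edgeR 4.0.16 (R 4.3.3, beside limma 3.58.1), with DESeq2 1.42.0 as an alternative. Summaries ran in Python 3.11.15 (numpy 2.4.6 and pandas 2.3.3; intervals in scipy 1.17.1; plots in matplotlib 3.10.9). The test was checked on simulated counts, with changes set only in features of more reads than most members had outside ddm1. The check therefore does not cover calls near 0. Library depth (4474810 to 10620119 counts) puts a count of 0 at up to 0.282 to 0.670 CPM.

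The elements and gene lists were chosen with earlier results of these data known. Members named are the highest and lowest in ddm1, those next to the bounds, those called between groups, those highest in the ago libraries, the most even and most uneven in ddm1, and the longest runs of neighbours. Of the gene lists, called genes are named. Any other element was named after its values were seen. No element sequence or position is given, because the annotation used here (RefSeq, assembly TAIR10.1) does not carry the element identifiers. Alternatives were DESeq2, its size factors in edgeR, no filter, only the groups compared, the replicate number as a term, other wild-type controls, leaving out each library, other scalings, and members with whole counts alone.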

Additional observations from a re-analysis of the deposited data

Results flagged for a closer look

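A library was counted as far from its group when its gap to the nearest other library, over the group's range, passed Dixon's 95% value. This was examined in 57 sets of values and met in 6, where chance gives about 1 in 20. The summed level of the chosen elements was 8.90 CPM in wt col-0 replicate 7, and the next highest wt col-0 library had 4.52 CPM. AT5TE38320 had 1.38 CPM in ddm1 replicate 3, with the next library at 0.907 CPM. AT1TE50115 (9.37 CPM), AT2TE16235 (4.62 CPM) and AT2TE21765 (4.22 CPM) had all their ddm1 counts in replicate 2, and AT2TE16585 (5.73 CPM) in replicate 3. The last 4 were named because 1 library held their counts, so this follows from how they were picked.

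The reporter row for mCherry, which no comparison uses, held 44 counts in ddm1, 0 in ago4ago9, 10 in ago4, 4 in ago9, 8 in ago5, 13 in ago5ago9, 39 in the libraries labelled ago4ago5ago9 and 34 in wt21, against 0 in wt col-0. Groups compared with each other thus differed in this row, among them ddm1 and wt col-0, and ago4ago9 and ago5ago9. What such a difference contributes to the results was not tested.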

How the results depend on the processing

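No result changed direction under any alternative run. Of 269 alternative values of counts and summed levels, 245 stayed close to the value reported. For ago4 against wt col-0 the 4 members called became 2 with wt21 as control, 0 with wt col-0 replicates 1 to 4, 0 with the replicate block, 2 with only the groups compared, 1 with DESeq2 and 2 to 4 with 1 library left out. The 1 member called in ago9 became 0 with wt col-0 replicates 1 to 4, 0 with the replicate block, 0 with only the groups compared, 0 with DESeq2, 0 to 1 with 1 library left out, and was 1 with ago9 replicates 1 and 2 alone. The 6 members called in ago4ago9 against wt col-0 became 16 without the filter, which tests more features, and 5 with the replicate block. In ago5ago9 the count was 0 to 1 with 1 library left out, the 1 being AT3TE76225 without ago5ago9 replicate 3. Other replicate block counts were those reported. For the silencing genes in ddm1 the count stayed at 6, but SUVH5 and H1.2 lost their call and VIM1 and MOM1 gained one. Same-numbered libraries did not deviate together (correlations of -0.208 to 0.106), so the numbers do not pair the samples. With whole-count members alone, chosen after seeing the data, the summed level was 1153 CPM in ddm1, 6.31 in ago4ago9, 3.03 in ago4, 2.87 in ago9, 1.06 in ago5, 1.22 in ago5ago9, 1.67 in ago4ago5ago9, 1.59 in wt21 and 1.81 in wt col-0, lower by construction. DESeq2 size factors moved the median log2 fold change of all features by at most 0.01. Where no cause is named, it was not tested. Depth limits single members outside ddm1, where most values rest on few reads.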
